A study of Homo sapiens with 8 samples.

Results

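The genes described here are 10 human genes that move copper across membranes or hand it from protein to protein: SLC31A1, SLC31A2, ATP7A, ATP7B, ATOX1, CCS, SOD1, COX17, COX19 and COMMD1. They were chosen by symbol and are 10 of the 60592 gene rows of the series. The cells were WSU-DLCL2, an established diffuse large B-cell lymphoma line. The 8 RNA sequencing libraries formed 4 groups of 2: FDX1-overexpressing cells (FDX1-OE) given 15 nM elesclomol (ES) for 48 h, FDX1-OE cells given the solvent DMSO for 48 h, control cells labelled wild type given 15 nM ES for 48 h, and control cells given DMSO for 48 h. The series title asks how FDX1 overexpression changes the transcriptome of these cells under ES. How FDX1 was introduced, and whether each line is a clone, is not said in the labels used here.

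Copper enters mammalian cells through the transporter SLC31A1, is carried to the secretory pathway by the chaperone ATOX1, and is pumped there or out of the cell by the ATPases ATP7A and ATP7B. CCS loads copper onto the antioxidant enzyme SOD1, and a relay in the mitochondrial intermembrane space that includes COX17 and COX19 serves cytochrome c oxidase. Elesclomol is a small molecule that binds copper and carries it into cells and mitochondria. FDX1, or ferredoxin 1, is a mitochondrial iron-sulfur protein that can reduce the copper bound by elesclomol.

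FDX1 itself was at 60.7 and 59.4 FPKM in FDX1-OE ES, 59.8 and 56.0 in FDX1-OE DMSO, 9.88 and 10.0 in control ES, and 10.8 and 10.4 in control DMSO. FPKM, fragments per kilobase of gene model scaled to a fixed library total, is a level that can be compared between genes. The FPKM of a library summed to 403024 and 408018 in FDX1-OE ES and to 445716 to 451027 elsewhere, and 11868 and 12047 genes reached 1 FPKM in FDX1-OE ES, against 10815 to 11320 elsewhere. The median absolute log2 difference between the 2 libraries of a group was 0.16 in FDX1-OE ES and 0.07 to 0.09 in the other groups. All 6 B cell markers were present, with CD79A at 461 to 581 FPKM. With ES in FDX1-OE cells 2 of them were called higher (CD79A, PAX5) and 2 lower, beside 47.1% and 13.7% of all genes tested. Of the lower ones CD79B was at a mean of 170 FPKM in FDX1-OE ES, against 216 in FDX1-OE DMSO, and CD22 at 239, against 346. Of 8 T and NK cell markers 7 stayed below 1 FPKM and 4 of those were at 0 in all 8 libraries (TRAC was the exception, at 70.1 to 85.5 FPKM), as did 4 of 6 myeloid and 5 of 6 epithelial and fibroblast markers, none of these at 0 throughout. The myeloid marker AIF1 was higher with ES by 0.64 in FDX1-OE cells (adjusted p = 0.0140) and 0.85 in control cells (adjusted p = 0.0319), and the fibroblast marker DCN was lower by -0.67 in FDX1-OE cells (adjusted p = 0.00270), on the log2 scale and with the limma test described next. Each was the only one of its list of 6 to be tested. The 6 myeloid markers summed to 4.01 and 5.97 FPKM in FDX1-OE ES, 1.84 and 2.38 in FDX1-OE DMSO, 3.62 and 4.598 in control ES, and 1.82 and 1.70 in control DMSO, higher with ES in both lines, and the 6 epithelial and fibroblast markers to 0.978 to 1.77 FPKM. Below 1 FPKM, COL1A1 was at 0.345 and 0.444 in FDX1-OE ES, against 0 and 0 in FDX1-OE DMSO. For the same groups KRT18 was at 0.184 and 0.319, against 0.0431 and 0.0795, while KRT8 overlapped, at 0.198 and 0.103, against 0.0684 and 0.234. The myeloid marker CD68 was at 0.760 and 1.01, against 0.0986 and 0.0295. ITGAM was at 0.202 and 0.339, against 0 and 0, but CD14 at 0 and 0, against 0.0246 and 0.0473. CD8A was at 0.271 and 0.341, against 0 and 0.0283, and NKG7 at 0.194 and 0.216, against 0 and 0. Mitochondrially encoded mRNA made up 14.7% and 11.9% of the FPKM in FDX1-OE ES and 16.9% to 17.6% elsewhere. The part of any of these in the results was not tested.

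Fold changes below are log2 differences of group means of log2(FPKM + 1), which understate the change of low genes. They come from limma fitted to 12063 genes that reached 1 FPKM in at least 2 libraries, and a gene was called when its Benjamini-Hochberg adjusted p over all of them was below 0.05. Of the 10 genes, 8 passed this filter. SLC31A2 and ATP7B did not, and their levels are given without a test. The labels do not say that the 2 libraries of a group are separate cultures, so p-values measure only the spread between these libraries, which may be technical. In bulk RNA, a level per library cannot tell less RNA per cell from fewer cells holding it.

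ES in FDX1-OE cells moved 4 of the 8 tested genes: the exporter ATP7A, the mitochondrial factor COX19 and the ATPase partner COMMD1 were higher and SOD1 was lower. Among all genes tested, 47.1% were called higher and 13.7% lower in that comparison, 60.8% in either direction, so the 4 of 8 is near the background. In control cells ES moved only COMMD1 of the 8, higher, beside 6.74% of all genes called higher and 1% lower, 7.74% in either direction. That share rests on few libraries: 934 genes were called there, and 28 without the second control ES library. FDX1-OE ES against control ES gave 2 higher, COX19 and COMMD1, and 2 lower, SOD1 and ATOX1, beside 31.1% higher and 10.4% lower among all genes, 41.5% in all. Without drug, FDX1-OE against control called none of the 8. In that comparison limma called 1 gene in all, FDX1, or 0.00829% of those tested, and 1 of the 8 (COMMD1) and 420 of all genes had an unadjusted p below 0.05. Libraries of the compared groups did not overlap, with ES in FDX1-OE cells, for 3 of the 8 on the higher and 2 on the lower side, beside 58.9% and 20.1% of all genes. For ES in control cells this held for 4 on the higher side and 0 on the lower (48.2% and 17.1% of all genes), and for FDX1-OE ES against control ES for 4 and 3 (50.6% and 18.5%). In DMSO it held for 4 and 0 (19.5% and 19.5%). The comparisons share libraries and are not independent of one another. The median log2 fold change of the 8 was 0.06 beside 0.25 for all genes with ES in FDX1-OE cells, and 0.21 beside 0.09 with ES in control cells.

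**Figure D1:**
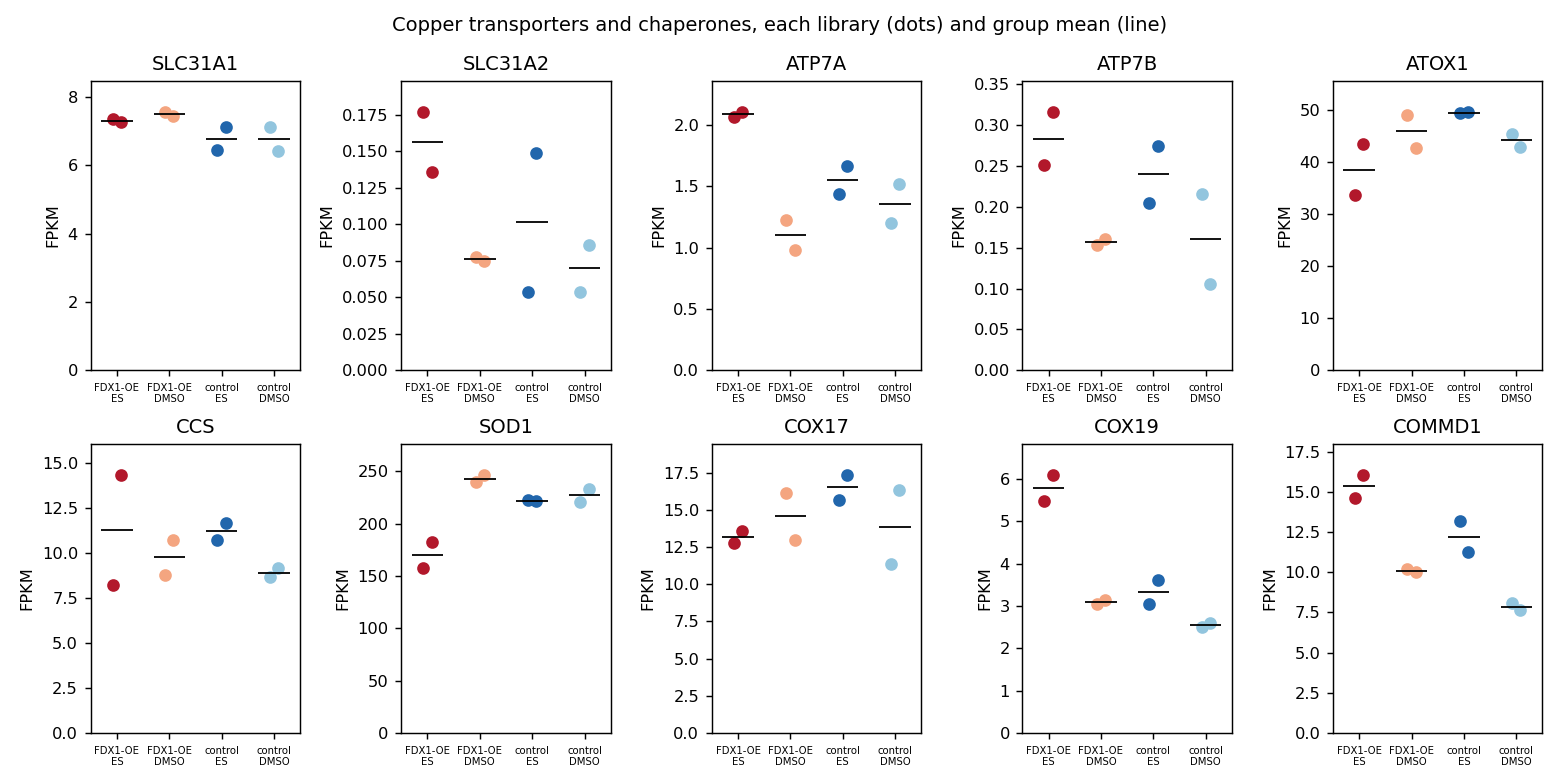
FPKM of the 10 genes in each of the 8 libraries (dots) with the mean of each group (line), groups left to right as FDX1-OE ES, FDX1-OE DMSO, control ES and control DMSO, each panel on its own linear axis from 0. SOD1 sits lowest in FDX1-OE ES (158 and 183 FPKM), while ATP7A, COX19 and COMMD1 sit highest there, and SLC31A2 and ATP7B stay under 1 FPKM in every library.

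The promoters of the called members with an entry in the RefSeq promoter table (GRCh38.p14) are shown because these genes moved in different directions and 1 of them holds a metal response core. Each window of 300 bases runs from before the annotated start into the transcribed part, read 5′ to 3′ on the gene's own strand. The windows are chrX:77910443-77910742 (plus strand) for ATP7A, chr5:151758582-151758881 (minus) for ATOX1, chr7:975500-975799 (minus) for COX19 and chr2:61905424-61905723 (plus) for COMMD1, where the last was, of 3 RefSeq starts, the one nearest a GENCODE start. Capitals mark matches on either strand to a metal response core (TGCACNC or TGCGCNC), an antioxidant response core (TGACNNNGC) or a GC box (GGGCGG).
ATP7A: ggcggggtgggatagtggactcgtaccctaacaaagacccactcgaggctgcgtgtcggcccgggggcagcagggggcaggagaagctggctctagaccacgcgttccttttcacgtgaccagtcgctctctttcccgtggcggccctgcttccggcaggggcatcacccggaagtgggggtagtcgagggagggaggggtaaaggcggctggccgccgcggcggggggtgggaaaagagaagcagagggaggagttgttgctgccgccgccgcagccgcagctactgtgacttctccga
ATOX1: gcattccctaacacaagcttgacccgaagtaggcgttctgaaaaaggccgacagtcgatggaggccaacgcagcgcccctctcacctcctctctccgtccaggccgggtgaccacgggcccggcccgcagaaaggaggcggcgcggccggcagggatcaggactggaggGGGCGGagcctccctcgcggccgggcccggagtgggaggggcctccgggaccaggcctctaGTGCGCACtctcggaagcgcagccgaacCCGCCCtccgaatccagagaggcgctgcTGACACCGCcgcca
COX19: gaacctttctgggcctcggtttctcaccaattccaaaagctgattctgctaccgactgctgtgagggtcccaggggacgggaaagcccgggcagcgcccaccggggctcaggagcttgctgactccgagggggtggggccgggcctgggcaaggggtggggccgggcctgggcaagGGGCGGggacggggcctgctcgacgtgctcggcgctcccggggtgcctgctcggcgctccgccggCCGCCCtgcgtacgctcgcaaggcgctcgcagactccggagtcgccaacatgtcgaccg
COMMD1: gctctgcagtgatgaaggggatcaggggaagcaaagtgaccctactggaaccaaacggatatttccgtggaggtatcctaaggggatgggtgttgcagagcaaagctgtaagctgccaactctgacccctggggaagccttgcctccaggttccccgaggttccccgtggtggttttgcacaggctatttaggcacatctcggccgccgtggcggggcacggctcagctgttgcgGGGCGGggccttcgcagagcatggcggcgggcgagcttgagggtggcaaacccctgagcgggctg

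A metal response core is the short sequence bound by MTF1, the metal-sensing transcription factor that drives metallothionein genes. Of the 10 genes, 8 had a promoter entry, and the exceptions were SLC31A2 and SOD1. The ATOX1 window held a stretch that reads as TGCGCNC on both strands, at -20 and -19 from the start, with an antioxidant core at 36, in the transcribed part. ATP7A had no match to any of these motifs, COX19 had 2 GC boxes and COMMD1 had 1. Metal response cores were also present in the windows of ATP7B, CCS and COX17. The RefSeq starts of the ATP7B and CCS windows lay 514 and 364 bases from the nearest start of a main GENCODE transcript. Across all 35116 promoters of the table, 29.6% held either metal response core, 13.3% an antioxidant core and 45.0% a GC box. A match describes letters in the window and not binding, and the motifs do not overlap one another in these 4 windows except for that pair in ATOX1.

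The importers come first. SLC31A1, the high-affinity copper importer of the cell surface, lies on chromosome 9. Its level was 7.35 and 7.27 FPKM in FDX1-OE ES, 7.56 and 7.44 in FDX1-OE DMSO, 6.44 and 7.11 in control ES, and 7.13 and 6.43 in control DMSO. All 8 values lay between 6.43 and 7.56 FPKM, and the control groups overlapped. The log2 fold change with ES was -0.03 in FDX1-OE cells (95% interval -0.23 to 0.17, adjusted p = 0.762) and -0.00 in control cells (-0.20 to 0.20, adjusted p = 0.995). That small value depended on the scaling of the libraries: it was 0.09 with equal FPKM totals, but SLC31A1 was called lower in FDX1-OE ES at -0.33 with median-ratio scaling (adjusted p = 0.0105) and at -0.37 with quantile normalisation (adjusted p = 0.0075). As deposited, the FDX1-OE value was 0.28 below the median of all genes.

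SLC31A2, a relative of SLC31A1 found mainly on internal membranes, was near the floor of detection. Its level was 0.177 and 0.136 FPKM in FDX1-OE ES, 0.0774 and 0.0751 in FDX1-OE DMSO, 0.0537 and 0.149 in control ES, and 0.0533 and 0.0861 in control DMSO. The ES and DMSO libraries did not overlap in FDX1-OE cells and overlapped in control cells. In the GENCODE annotation of GRCh38, 63.1% of the SLC31A2 exon bases are shared with FKBP15 on the opposite strand, which was at 11.1 to 12.5 FPKM. Whether strand was used in counting is not given in the sources used here, so reads of the pair cannot be told apart.

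Among the exporters, only ATP7A was tested. ATP7A, the copper ATPase mutated in Menkes disease, spans 77910656 to 78050395 on chromosome X (GRCh38, plus strand). It stood at 2.07 and 2.11 FPKM in FDX1-OE ES, 1.22 and 0.983 in FDX1-OE DMSO, 1.44 and 1.67 in control ES, and 1.20 and 1.52 in control DMSO. The FDX1-OE ES libraries were above every other library, while the other 3 groups overlapped their neighbours in level. With ES the mean level was 1.89 times that with DMSO in FDX1-OE cells, a log2 fold change of 0.56 (SE 0.12, adjusted p = 0.00458), and the call stayed when any 1 library was left out. The call held in 15 of 16 alternatives. It was lost under quantile normalisation, where the change was 0.13 (adjusted p = 0.414). In control cells the ES change was 0.12 (SE 0.12, adjusted p = 0.570), and FDX1-OE ES against control ES gave 0.28 (adjusted p = 0.10). The difference of the ES effects, FDX1-OE minus control, was 0.44 (SE 0.17, adjusted p = 0.105) and is not shown to differ from 0. ATP7A shares 0.888% of its exon bases with PGK1, which lay lower in FDX1-OE ES (52.9 and 49.1 FPKM, against 88.5 and 93.6 in FDX1-OE DMSO), and 2.63% with a pseudogene on the same strand at 0.0900 to 0.229 FPKM. Their part in the ATP7A values was not tested.

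ATP7B, the copper ATPase mutated in Wilson disease and best known from liver, was below 1 FPKM in all 8 libraries. It was at 0.251 and 0.316 FPKM in FDX1-OE ES, 0.154 and 0.161 in FDX1-OE DMSO, 0.205 and 0.275 in control ES, and 0.216 and 0.106 in control DMSO. The libraries of FDX1-OE ES and FDX1-OE DMSO did not overlap, and those of control ES and control DMSO did. No test was made.

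Within a library, the ratio of the importer to the exporter described how the pair moved. SLC31A1 over ATP7A, both per length, was 3.55 and 3.45 in FDX1-OE ES, 6.18 and 7.57 in FDX1-OE DMSO, 4.48 and 4.26 in control ES, and 5.94 and 4.23 in control DMSO. The ratio was lowest in FDX1-OE ES, and the control groups overlapped.

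The chaperones of the cytosol follow. ATOX1, which hands copper to ATP7A and ATP7B, spans 151742316 to 151772532 on chromosome 5 (minus strand). Its level was 33.6 and 43.5 FPKM in FDX1-OE ES, 49.1 and 42.7 in FDX1-OE DMSO, 49.5 and 49.7 in control ES, and 45.5 and 42.9 in control DMSO. The first FDX1-OE ES library was the lowest of the 8, and the second lay within the range of both DMSO groups. Against control ES, FDX1-OE ES was lower by a log2 fold change of -0.36 (SE 0.12, adjusted p = 0.0370). Without that first FDX1-OE ES library the value was -0.18 (adjusted p = 0.123), and without either control library under ES or under DMSO the adjusted p lay between 0.0539 and 0.131. ES against DMSO in FDX1-OE cells gave -0.25 (adjusted p = 0.0915), and it was called at -0.43 without the second FDX1-OE ES library (adjusted p = 0.00452). In control cells the ES change was 0.16 (adjusted p = 0.398), and the difference of the ES effects was -0.42 (SE 0.17, adjusted p = 0.110). ATOX1 over ATP7A was 16.2 and 20.7 in FDX1-OE ES, 40.2 and 43.4 in FDX1-OE DMSO, 34.4 and 29.7 in control ES, and 37.9 and 28.2 in control DMSO, lowest in FDX1-OE ES without overlap.

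CCS, the copper chaperone of SOD1, was at 8.22 and 14.4 FPKM in FDX1-OE ES, 8.81 and 10.7 in FDX1-OE DMSO, 10.7 and 11.7 in control ES, and 8.67 and 9.16 in control DMSO. The FDX1-OE ES libraries differed by a ratio of 1.75 and spanned all other values, so no ES effect could be settled in those cells. Their log2 fold change was 0.15 (95% interval -0.33 to 0.63, adjusted p = 0.549). It was 0.52 without the first FDX1-OE ES library (adjusted p = 0.00828) and -0.22 without the second. In control cells the ES libraries lay above the DMSO libraries with no overlap, at 0.30 (95% interval -0.18 to 0.78, adjusted p = 0.379).

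SOD1, the cytosolic copper and zinc superoxide dismutase that CCS supplies, spans 31659622 to 31668931 on chromosome 21. It was the highest of the 10 genes in every library, at percentiles 97.7 to 98.3 of the genes tested. Its level was 158 and 183 FPKM in FDX1-OE ES, 239 and 247 in FDX1-OE DMSO, 222 and 222 in control ES, and 221 and 233 in control DMSO. Both FDX1-OE ES libraries were below the other 6, and the control groups overlapped. With ES the mean in FDX1-OE cells was 0.701 of that with DMSO, a log2 fold change of -0.51 (SE 0.07, adjusted p = 0.000593). Against control ES it was -0.38 (SE 0.07, adjusted p = 0.00516), and -0.18 under quantile normalisation (adjusted p = 0.104). In control cells ES gave -0.03 (95% interval -0.20 to 0.14, adjusted p = 0.813).

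The ES effects on SOD1 differed between FDX1-OE and control cells by -0.48 (SE 0.10, adjusted p = 0.0195), and SOD1 was the only one of the 8 genes called in that test, beside 19% of all genes (5.06% lower). Of the 984 genes with a mean of 64 FPKM or more, the class of SOD1, 26.8% were called lower in that test, with a median of -0.16 and a lower quartile of -0.38. Leaving out any 1 of the 4 control libraries or the 2 FDX1-OE DMSO libraries lost the call, with values of -0.52 to -0.44. Fewer of all genes were called in those fits too. CCS over SOD1 was 0.0520 and 0.0787 in FDX1-OE ES, 0.0368 and 0.0435 in FDX1-OE DMSO, 0.0483 and 0.0527 in control ES, and 0.0392 and 0.0393 in control DMSO. The ratio was above the DMSO libraries in all 4 ES libraries. The annotated SOD1 pseudogenes SOD1P1, SOD1P2 and SOD1P3 were listed at 0 in all libraries.

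Genes at the level of SOD1 tended to be lower in FDX1-OE ES in these files. Over the genes with a mean of 64 FPKM or more, 984 in number, the median log2 fold change with ES in FDX1-OE cells was -0.18, and the middle 50% of genes lay between -0.47 and 0.10. For the 2861 genes with a mean of 1 to 4 FPKM, the class of ATP7A and COX19, the median was 0.39 and the middle 50% lay between 0.10 and 0.71. For the 4169 genes at 4 to 16 FPKM, which include COMMD1, SLC31A1, CCS and COX17, the median was 0.30. SOD1 at -0.51 and COX19 at 0.73 lay just outside the middle 50% of their class, and ATP7A at 0.56 lay inside it. COX17 and SLC31A1 lay below the middle 50% of their class, which ran from 0.03 to 0.56. ATOX1 lay below the middle 50% of the 3264 genes at 16 to 64 FPKM, which ran from -0.18 to 0.37. The part of this level pattern in the members' changes was not tested.

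**Figure D2:**
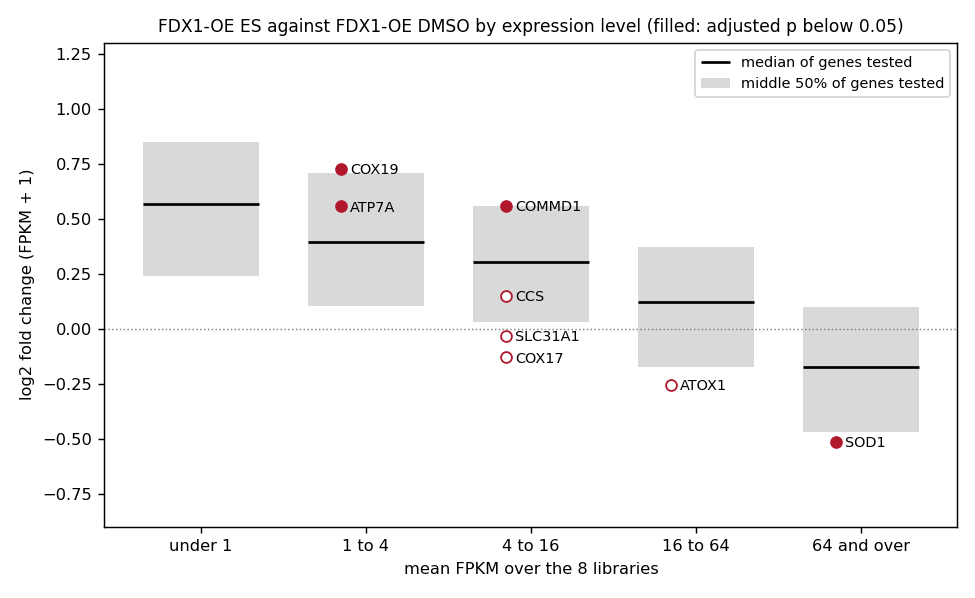
Log2 fold change of ES against DMSO in FDX1-OE cells for genes grouped by mean FPKM over the 8 libraries (grey bars, middle 50% of genes tested; black lines, median), with the 8 tested copper genes as dots, filled where the adjusted p was below 0.05. The medians run from 0.57 under 1 FPKM to -0.18 at 64 FPKM and over, and SOD1 and COX19 lie at opposite ends.

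Of the mitochondrial factors, COX19 was called and COX17 was not. COX17, the metallochaperone that passes copper to SCO1 and COX11 for cytochrome c oxidase, was at 12.7 and 13.6 FPKM in FDX1-OE ES, 16.2 and 13.0 in FDX1-OE DMSO, 15.7 and 17.4 in control ES, and 11.4 and 16.3 in control DMSO. The groups overlapped except FDX1-OE ES against control ES, where the FDX1-OE libraries were lower. No comparison called COX17. The log2 fold change was -0.13 with ES in FDX1-OE cells (95% interval -0.49 to 0.24, adjusted p = 0.501) and 0.26 in control cells (-0.11 to 0.62, adjusted p = 0.328). Median-ratio scaling called it lower with ES in FDX1-OE cells, at -0.44 (adjusted p = 0.0417).

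COX19, a small cysteine-rich protein of the intermembrane space needed for cytochrome c oxidase assembly, spans 898778 to 975599 on chromosome 7 (minus strand). Its level was 5.47 and 6.10 FPKM in FDX1-OE ES, 3.05 and 3.14 in FDX1-OE DMSO, 3.04 and 3.60 in control ES, and 2.51 and 2.60 in control DMSO. FDX1-OE ES stood above all other libraries, and control DMSO below all others. With ES in FDX1-OE cells the mean was 1.87 times that with DMSO, a log2 fold change of 0.73 (SE 0.10, adjusted p = 0.000558). Against control ES it was 0.65 (SE 0.10, adjusted p = 0.00246). Both calls held in all 16 alternative settings, with values of 0.34 to 0.88 and 0.42 to 0.78. In control cells the ES change was 0.28 (SE 0.10, adjusted p = 0.130), and the difference of the ES effects was 0.45 (SE 0.15, adjusted p = 0.0652), which was called at 0.51 without the first FDX1-OE ES library (adjusted p = 0.0431).

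COX19 shares 21.4% of its exon bases with ADAP1 on the same strand. ADAP1, an Arf GTPase-activating protein, was at 1.32 and 1.89 FPKM in FDX1-OE ES, 0.0506 and 0.102 in FDX1-OE DMSO, 0.364 and 0.673 in control ES, and 0.0382 and 0.0663 in control DMSO. It was highest in FDX1-OE ES, as was COX19, and reached 1 FPKM only in that group, through which it passed the filter. Its fitted log2 fold change with ES in FDX1-OE cells, 1.26 (adjusted p = 0.000287), is therefore a description. How the authors' counting divided reads in the shared exons is not given in the sources used here, and the part of ADAP1 in the COX19 values was not tested. COX17 over COX19 was 2.33 and 2.23 in FDX1-OE ES, 5.29 and 4.14 in FDX1-OE DMSO, 5.15 and 4.82 in control ES, and 4.54 and 6.28 in control DMSO.

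COMMD1, a copper metabolism protein that binds ATP7A and ATP7B and is a subunit of the Commander endosomal recycling complex, spans 61888724 to 62147247 on chromosome 2 (plus strand). It was at 14.6 and 16.1 FPKM in FDX1-OE ES, 10.2 and 10.0 in FDX1-OE DMSO, 13.2 and 11.2 in control ES, and 8.06 and 7.66 in control DMSO. The 4 groups did not overlap, in the order FDX1-OE ES, control ES, FDX1-OE DMSO and control DMSO from high to low. With ES the log2 fold change was 0.56 in FDX1-OE cells (SE 0.09, adjusted p = 0.00121) and 0.57 in control cells (SE 0.09, adjusted p = 0.0163). The difference of these effects was -0.02, with a 95% interval of -0.32 to 0.29, so these libraries do not settle whether they differ by less than that. FDX1-OE against control gave 0.31 under ES (SE 0.09, adjusted p = 0.0288) and 0.33 in DMSO (SE 0.09, adjusted p = 0.999).

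The firmness of the COMMD1 calls differed. The rise in FDX1-OE cells held without any 1 library and was 0.24 with median-ratio scaling (adjusted p = 0.0642). The rise in control cells had an adjusted p of 0.0604 to 0.105 without any 1 of the 4 control libraries, at log2 fold changes of 0.47 to 0.68. The FDX1-OE rise under ES had an adjusted p of 0.0507 without either FDX1-OE DMSO library, 0.172 without the second control ES library and 0.0856 without the second FDX1-OE ES library. It was called in 7 of 16 alternatives, and its value was as low as 0.11 with median-ratio scaling (adjusted p = 0.402). COMMD1 shares 3.39% of its exon bases with CCT4 on the opposite strand, which was lower with ES in FDX1-OE cells (86.6 and 75.4 FPKM, against 114 and 115 in FDX1-OE DMSO). A processed pseudogene within it, RPSAP26, covers 31.0% of its exon bases and stayed at 0.0600 to 0.451 FPKM. The part of either in the COMMD1 values was not tested. SOD1 over COMMD1 was 10.8 and 11.4 in FDX1-OE ES, 23.4 and 24.7 in FDX1-OE DMSO, 16.9 and 19.8 in control ES, and 27.4 and 30.4 in control DMSO, with no overlap between the groups.

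**Figure D3:**
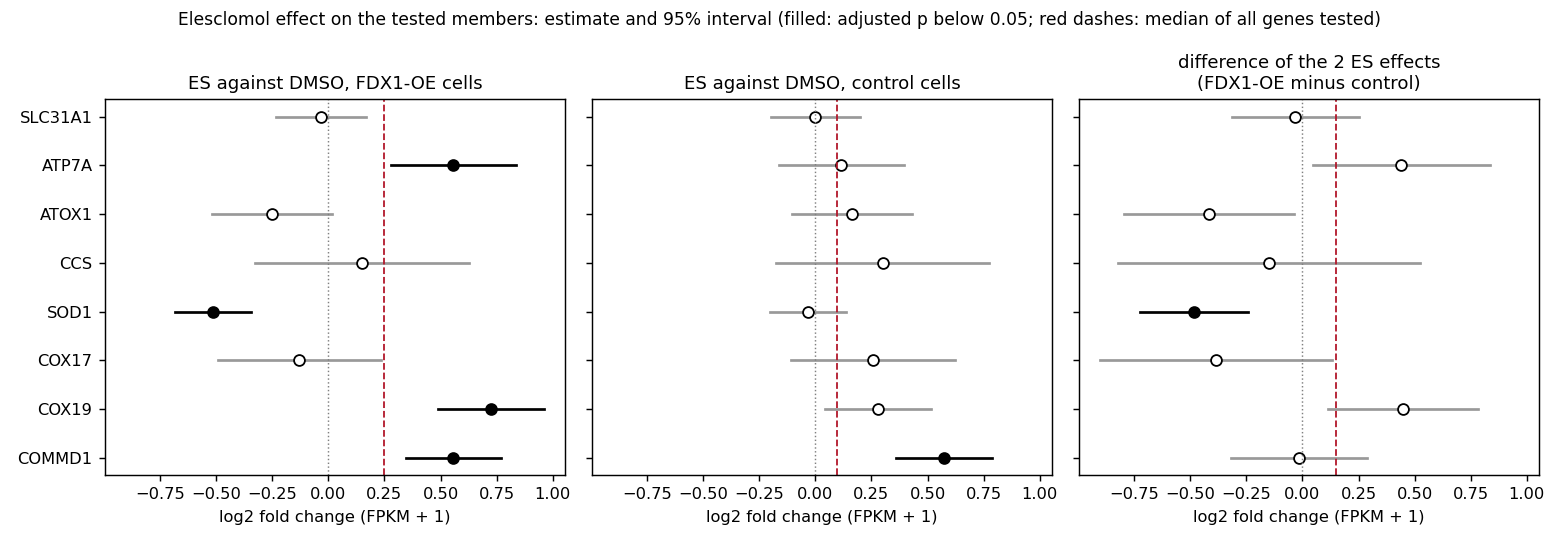
Log2 fold change (points) and 95% interval (bars) of ES against DMSO for the 8 tested genes in FDX1-OE cells, in control cells, and the difference of the effects, with points filled where the adjusted p was below 0.05 and red dashes at the median of all genes tested. SOD1 lies at -0.51, -0.03 and -0.48 across the panels, while COMMD1 lies at 0.56, 0.57 and -0.02.

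The scaling of the libraries set part of these results. Median-ratio scaling moved the median of all genes by -0.30 with ES in FDX1-OE cells, quantile normalisation by -0.26 and equal FPKM totals by 0.13. Relative to the median of all genes as deposited, which was 0.25, the ES change in FDX1-OE cells was 0.48 for COX19, 0.31 for ATP7A, 0.31 for COMMD1, -0.10 for CCS, -0.28 for SLC31A1, -0.38 for COX17, -0.50 for ATOX1 and -0.76 for SOD1. The split of called genes turned with the scaling: 3 higher and 1 lower as deposited, 2 higher and 4 lower with median-ratio scaling, and 2 higher and 2 lower with quantile normalisation. Over all genes the same settings gave 5682 higher and 1652 lower, 2636 higher and 3650 lower, and 2783 higher and 2937 lower. SOD1 stayed lower and COX19 stayed higher, both called, under each of the 4 scalings.

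**Figure D4:**
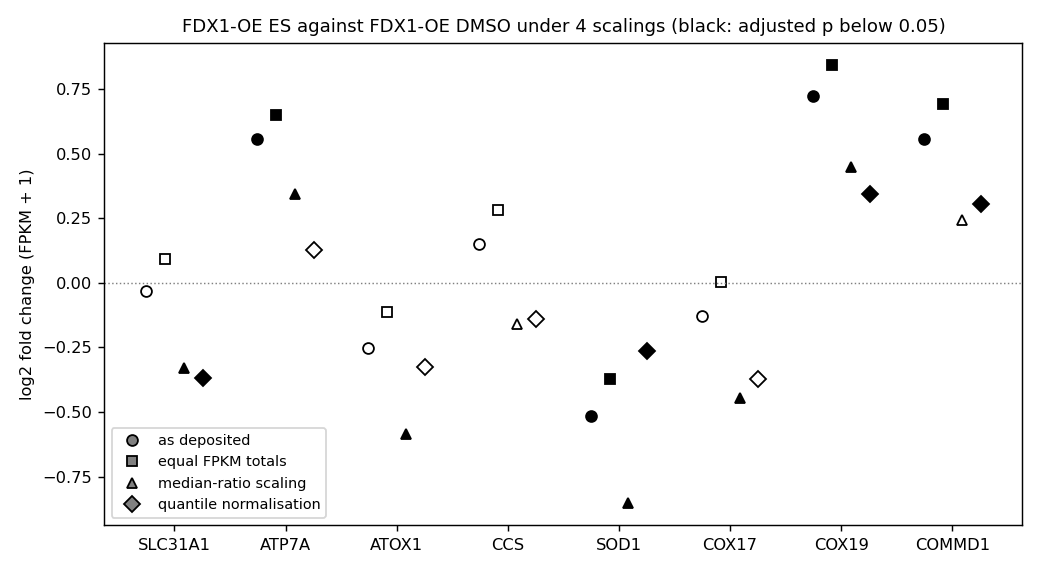
Log2 fold change of ES against DMSO in FDX1-OE cells for the 8 tested genes under the deposited scaling, equal FPKM totals, median-ratio scaling and quantile normalisation, black where the adjusted p was below 0.05. COX19 ranges from 0.34 to 0.85 and SOD1 from -0.85 to -0.26, while SLC31A1 lies on either side of 0.

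The order of the 10 levels was nearly the same in every group. SOD1 was highest, then ATOX1, then COX17, COMMD1 and CCS, then SLC31A1, COX19, ATP7A, ATP7B and SLC31A2. COMMD1 stood above COX17 in FDX1-OE ES and below CCS in control DMSO. COX17 and CCS overlapped in FDX1-OE ES, and COMMD1 and CCS in FDX1-OE DMSO and control ES; no other neighbours overlapped.

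The rest of the mitochondrial copper route was described by 11 genes chosen for their role. With ES in FDX1-OE cells 4 of the 11 were called higher and 4 lower, beside 47.1% and 13.7% of all genes. The lower ones were SCO2 and COA6, which help copper reach the COX2 subunit, COA4, a small intermembrane space assembly factor, and SLC25A3, the mitochondrial phosphate carrier that also carries copper. COA4 was at 43.9 and 48.7 FPKM in FDX1-OE ES, 67.9 and 65.9 in FDX1-OE DMSO, 62.3 and 62.1 in control ES, and 68.3 and 64.6 in control DMSO, with a log2 fold change of -0.52 in FDX1-OE cells (SE 0.07, adjusted p = 0.000366). Its ES effects differed by -0.43 (adjusted p = 0.0212), the only call of the 11 in that test, beside 19% of all genes (5.06% lower). With equal FPKM totals the difference was -0.30 (adjusted p = 0.0527). SCO2 was at 2.03 and 2.33 FPKM in FDX1-OE ES, 5.14 and 4.01 in FDX1-OE DMSO, 3.72 and 4.06 in control ES, and 5.96 and 4.73 in control DMSO, a log2 fold change of -0.80 in FDX1-OE cells (adjusted p = 0.00136). SCO2 has 2 gene models in GENCODE, of which 1 shares 28.3% of its exon bases with TYMP on the same strand (2.30 to 4.35 FPKM) and both share 41.7% to 48.8% with an antisense RNA (0.0130 to 0.379 FPKM). How reads were divided among them was not tested, and its value is uncertain for that reason.

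On the other side, COX11, which inserts copper into the COX1 subunit, was higher with ES in FDX1-OE cells by 0.53 (adjusted p = 0.00304), and CHCHD7 by 0.31 (adjusted p = 0.00316). COA5 and CMC2, both named for assembly of the same enzyme, were the other 2 called higher. With median-ratio scaling COX11 fell short of a call at 0.20 (adjusted p = 0.126) and CHCHD7 was at -0.02. The 11 genes then gave 0 higher and 6 lower, beside 52.8% of all genes called in either direction. Without the second FDX1-OE DMSO library fewer of the 11 were called, and fewer of all genes were called too. In control cells CMC2 was the only call of the 11, at 0.48 (adjusted p = 0.0314), beside 7.74% of all genes. FDX1-OE ES against control ES called none higher and 3 lower, COA4 at -0.42 (adjusted p = 0.00272), SCO2 at -0.62 (adjusted p = 0.00899) and COA6 at -0.54 (adjusted p = 0.0362). Without the second control ES library fewer of the 11 were called lower, and fewer of all genes were called too. Among all genes, FDX1-OE ES against control ES called 10.4% lower and 31.1% higher. The median of the 11 with ES in FDX1-OE cells was -0.06, beside 0.25 for all genes.

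COMMD1 belongs with 14 other genes of the COMMD family and the Commander complex. With ES in FDX1-OE cells 8 of these were called higher and none lower, with a median of 0.30, beside 0.25 and 47.1% higher for all genes. VPS35L, a scaffold subunit, was at 16.1 and 14.4 FPKM in FDX1-OE ES, 7.49 and 7.30 in FDX1-OE DMSO, 10.2 and 9.97 in control ES, and 8.30 and 7.63 in control DMSO. Its log2 fold change in FDX1-OE cells was 0.95 (SE 0.08, adjusted p = 6.79e-05). CCDC93, another subunit, rose by 0.72 (adjusted p = 0.000219), COMMD7 by 0.87 (adjusted p = 0.00110) and COMMD2 by 0.61 (adjusted p = 0.00240). COMMD4, COMMD5, COMMD6, COMMD8, COMMD9 and CCDC22 were not called. With median-ratio scaling 4 of the 14 were called higher and 2 lower, with a median of -0.01. Over all genes that setting called 52.8% in either direction, with a median of -0.05. Without the second FDX1-OE DMSO library fewer of the 14 were called higher, and fewer of all genes were called too.

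In control cells ES called none of the 14 in limma, with 4 at an unadjusted p below 0.05 and VPS35L at 0.31 (adjusted p = 0.0633). Without either FDX1-OE ES library some of the 14 were called higher, and more of all genes were called too. With all 8 libraries COMMD1 was called in control cells at 0.57, and 7.74% of all genes were called there in either direction. FDX1-OE ES against control ES called 7 higher, led by VPS35L at 0.55 (adjusted p = 0.00211) and CCDC93 at 0.47 (adjusted p = 0.00401). With median-ratio scaling 2 were called higher, where 34.3% of all genes were called in either direction, against 41.5% as deposited. Without the first control ES library fewer of the 14 were called higher, and fewer of all genes were called too. In FDX1-OE ES against control ES, 31.1% of all genes were called higher and 10.4% lower. The ES effects differed for VPS35L by 0.65 (adjusted p = 0.0119) and for CCDC93 by 0.42 (adjusted p = 0.0437), while COMMD1 gave -0.02. The 14 gave 2 calls in the test of that difference, beside 19% of all genes. Under median-ratio scaling the CCDC93 difference was 0.23 (adjusted p = 0.221). VPS35L shares 17.2% of its exon bases with KNOP1 on the opposite strand.

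**Figure D5:**
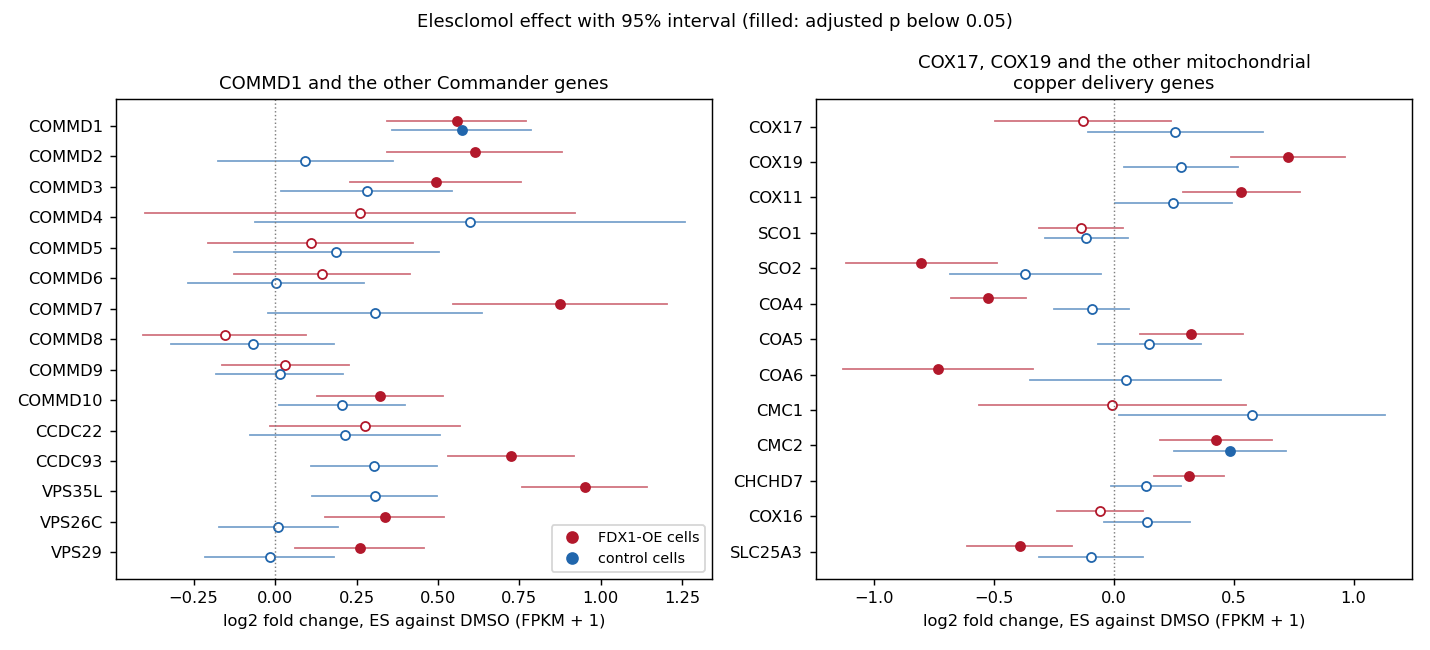
Log2 fold change of ES against DMSO with 95% intervals in FDX1-OE cells (red) and control cells (blue) for COMMD1 and 14 other Commander genes (left) and for COX17, COX19 and 11 other mitochondrial copper delivery genes (right), filled where the adjusted p was below 0.05. With the deposited scaling 13 of the 14 Commander genes lie right of 0 in FDX1-OE cells, VPS35L at 0.95 (under median-ratio scaling their median is -0.01), whereas the mitochondrial genes lie on both sides, with SCO2 at -0.80 and COX11 at 0.53.

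Copper must be reduced before SLC31A1 can carry it, and 2 of 5 genes for metal reductases and other metal entry passed the filter. CYBRD1, a ferric and cupric reductase of the plasma membrane, was at 3.38 and 3.60 FPKM in FDX1-OE ES, 0.591 and 0.520 in FDX1-OE DMSO, 1.38 and 1.81 in control ES, and 0.488 and 0.220 in control DMSO. The ES libraries were above the DMSO libraries in both lines. CYBRD1 reached 1 FPKM only with ES and so passed the filter through the groups where it is high. Its fitted values are given as a description. Its log2 fold change was 1.53 in FDX1-OE cells (SE 0.14, adjusted p = 7.74e-05), 0.94 in control cells (adjusted p = 0.0124) and 0.80 between FDX1-OE ES and control ES (adjusted p = 0.00358). The difference of the ES effects was 0.59 (adjusted p = 0.0691). SLC11A2, a divalent metal transporter, was not called in any comparison with the deposited scaling. It was called lower with ES in FDX1-OE cells at -0.45 with median-ratio scaling (adjusted p = 0.00602) and -0.51 with quantile normalisation (adjusted p = 0.00491), and lower against control ES under both, at -0.42 and -0.47.

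Of 17 copper enzymes of the secretory pathway and the cell surface, 14 did not pass the filter and 6 were at 0 in every library. LOXL2, a copper-dependent amine oxidase, was the only 1 called, at 57.6 and 52.9 FPKM in FDX1-OE ES, 80.6 and 80.3 in FDX1-OE DMSO, 68.4 and 62.5 in control ES, and 80.3 and 80.6 in control DMSO. It was lower with ES by -0.54 in FDX1-OE cells (adjusted p = 0.000328) and -0.29 in control cells (adjusted p = 0.0397), and by -0.24 in FDX1-OE ES against control ES (adjusted p = 0.0231). Among all genes tested, 13.7%, 1% and 10.4% were called lower in these comparisons, and 60.8%, 7.74% and 41.5% in either direction. Against control ES the value was -0.10 with equal FPKM totals (adjusted p = 0.219) and -0.45 with median-ratio scaling (adjusted p = 0.00251), and the control-cell call was lost with quantile normalisation (adjusted p = 0.0864). AOC2 and AOC3, also amine oxidases, were not called with the deposited scaling. With quantile normalisation both were called lower with ES in FDX1-OE cells, AOC2 at -0.52 (adjusted p = 0.00577) and AOC3 at -0.62 (adjusted p = 0.00917), and AOC2 also against control ES at -0.43 (adjusted p = 0.0226). That setting called 47.4% of all genes with ES in FDX1-OE cells and 29.1% in FDX1-OE ES against control ES.

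Among 12 regulators and partners of copper handling, 10 were tested, and ES in FDX1-OE cells called 4 higher and 2 lower, beside 47.1% and 13.7% of all genes and so near the 60.8% called in either direction. DCTN4, a dynactin subunit that binds ATP7B, was higher by 0.88 (SE 0.09, adjusted p = 0.000119), and the copper-activated kinase ULK1 by 0.94 (adjusted p = 0.00273). AP1S1, an adaptor subunit tied to ATP7A trafficking, was lower by -0.39 (adjusted p = 0.000831), and CUTC by -0.43 (adjusted p = 0.00295). The ES effects differed for DCTN4 by 0.61 (adjusted p = 0.0160) and AP1S1 by -0.34 (adjusted p = 0.0286). These were the 2 calls of the 10, beside 19% of all genes. Both were lost without the second FDX1-OE DMSO library, where fewer of all genes were called too. None of the 10 was called in control cells by limma, beside 7.74% of all genes, with DCTN4 at 0.27 (adjusted p = 0.10). With median-ratio scaling the FDX1-OE split was 2 higher and 5 lower, beside 52.8% of all genes called in either direction.

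The metallothioneins, which store copper and zinc, had larger ES changes than any of the 10 genes. All 5 that passed the filter were called higher with ES in both lines. Among all genes tested, 47.1% were called higher in FDX1-OE cells and 6.74% in control cells. MT2A was at 382 and 591 FPKM in FDX1-OE ES, against 19.3 and 26.0 in FDX1-OE DMSO. In control cells MT2A was at 186 and 189 FPKM with ES, against 32.0 and 26.7 with DMSO. MT1H averaged 82.9 FPKM in FDX1-OE ES and 38.9 in control ES, against 0.0508 in FDX1-OE DMSO and 0.703 in control DMSO. MT1H passed the filter through the ES groups, where it is high, so its calls are given as a description. Reads of the near-identical metallothionein genes can be split between copies, so single values are uncertain.

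The genes whose log2 levels followed each called member most closely over the 8 libraries, among 6779 with a mean of at least 3, are given as a description. SOD1 was followed by EEF1G (r = 0.999), ERF (0.994) and ADA (0.992), and COX19 by SLC39A9 (0.995), PHACTR4 (0.995) and CPT1A (0.993). ATP7A was followed by COPS8 (0.982), PARP6 (0.977) and INPP5K (0.976), COMMD1 by ROGDI (0.976), MAGED2 (0.975) and MTHFSD (0.975), and ATOX1 by ANAPC11 (0.967), MRPL46 (0.962) and CKLF (0.957). The 8 points share 4 groups of 2 libraries and the level pattern above, so high values are common.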

How the data were processed

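RNA sequencing of total RNA gave 1 table per library, 8 in all, and the deposited values are treated as FPKM. The labels name no unit, so this rests on fractional values with unequal library sums. HISAT2, HTSeq, R 3.2.0 and the build hg19 are listed, without roles, per the submitters' processing notes. Depth and the use of strand are not given in the sources used here, so no counting error is attached to a value. Values were used as log2(FPKM + 1). The 12063 of 60592 rows that reached 1 FPKM in 2 or more libraries were fitted with limma 3.58.1 (R 4.3.3) as 4 group means with a mean-variance trend (4 residual and 4.25 prior degrees of freedom), tested two-sided in 5 comparisons, with Benjamini-Hochberg adjustment over all genes. The procedure was tested on simulated data. Rows sharing a symbol with another numbered 1059, none of them a member. All 10 members are given. From each other list the up to 4 genes with the smallest p in a comparison are named, and others were named after their values were seen. Likeness is Pearson's r with members called. Members and lists were chosen with earlier results of these data known. Alternatives were another pseudocount, no filter, 3 scalings, array weights, fits of the compared groups only, a replicate block and leaving out each library. Same-numbered libraries are not said to be paired. Exon overlaps come from GENCODE and promoters from RefSeq, both on GRCh38, while the notes name hg19.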

Additional observations from a re-analysis of the deposited data

Results flagged for a closer look

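For SOD1 the response to elesclomol was called as different between FDX1-OE and control cells: the difference of the ES effects, FDX1-OE minus control, was -0.48 on the log2 scale (SE 0.10, adjusted p = 0.0195 in limma). The ES change was -0.51 in FDX1-OE cells and -0.03 in control cells. SOD1 was lower in 2 of 2 FDX1-OE ES libraries than in any other library. It was the only one of the 8 tested copper genes past the threshold in this test, beside 19% of all genes. Of the 984 genes at 64 FPKM or more, the class of SOD1, 26.8% were called lower. The call held in 7 of 15 alternatives, with values of -0.69 to -0.30. It was lost without any 1 of the 4 control or 2 FDX1-OE DMSO libraries, where fewer of all genes were called too. Leaving out any 1 of the 8 libraries gave values of -0.59 to -0.38. The call was also lost with no filter (adjusted p = 0.0696), beside 4.68% of all genes called, and under quantile normalisation (adjusted p = 0.105), beside 11.6%.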

How the results depend on the processing

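Over 16 alternatives, 582 of 632 values of single members kept their direction and side of the threshold or turned sign with no call, 35 lost their call, 15 gained one and 0 reversed. FDX1 reversed with ES in FDX1-OE cells, from no call at 0.05 to -0.28 with median-ratio scaling (adjusted p = 0.00665). The count of members called is given with the share of all genes called in the same setting. With ES in FDX1-OE cells it was 4 (60.8%), and 6 with median-ratio scaling (52.8%). With ES in control cells it was 1 (7.74%), and 0 with no filter (0.203%) or quantile normalisation (1.91%). For FDX1-OE ES against control ES it was 4 (41.5%). It was 2 there with no filter (16.4%), quantile normalisation (29.1%), array weights (25.1%) or a fit of only the groups compared (25.8%). For the difference of the ES effects it was 1 (19%), and 0 with no filter (4.68%) or quantile normalisation (11.6%). It was 3 there with equal FPKM totals (32%) and 2 with median-ratio scaling (16.1%). All of these counts also varied when 1 library was left out, as did the numbers called among all genes. No filter raised the number of genes tested to 28582, and the genes called fell to 58 for ES in control cells, against 934 with the filter, and to 1339 for the difference, against 2291. Over all settings these counts spanned 28 to 2523 and 539 to 3885, and for FDX1-OE ES against control ES 2511 to 6642. The cause of the other changes was not tested. In DMSO the count of members called was 0 under every alternative. With the replicate number as a block the counts stayed 4, 1, 4, 0 and 1. Over 6 pairs of groups the deviations of same-numbered libraries correlated at -0.05 to 0.08. That showed no strong shared deviation, but it cannot tell whether those libraries were prepared together. With 2 libraries a group and unknown depth, small changes of low genes such as SLC31A2 and ATP7B were not detectable.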
